A study of Saccharomyces cerevisiae with 8 samples.

Results

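The 10 genes described here mark the end of mitosis and the early G1 phase of the budding yeast Saccharomyces cerevisiae, several of them in the newborn daughter cell. They were given as a named list: DSE1 (YER124C), DSE2 (YHR143W), DSE3 (YOR264W), DSE4 (YNR067C), SCW11 (YGL028C), CTS1 (YLR286C), EGT2 (YNL327W), ASH1 (YKL185W), PIR1 (YKL164C) and SIC1 (YLR079W). All 10 were found among the 7126 features of the deposited table, and all 10 were among the 6366 features with a mean of at least 1 RPKM (reads per kilobase of gene, scaled to library size). RNA was sequenced from 8 cultures, 2 of each genotype: a psh1 cac2 mutant (strain GH194), a psh1 mutant (GH72), a cac2 mutant (GH182) and wild type (WT, GH69). Psh1 is the ubiquitin ligase that marks surplus Cse4, the centromeric histone H3 variant, for destruction, and Cac2 belongs to CAF-1, which deposits histones on newly copied DNA. Each culture, WT included, grew in raffinose medium for 2 h at 30 °C after dilution to an OD600 of 0.1, and then for 10 h with 4% galactose to induce excess Cse4. No culture without Cse4 induction was analysed here, and each genotype was a single strain, so p-values measure the spread between duplicate cultures of these strains.

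When a yeast cell leaves mitosis, genes of the M/G1 boundary are turned on, and in the daughter these include genes for enzymes that dissolve the septum from the daughter side. The kinase Cbk1 and its partner Mob2, at the end of the RAM signalling network, are needed for that cell separation. The transcription factor Swi5, made earlier under the G2/M programme, enters the nucleus at this time and turns on G1 genes such as the cyclin-dependent kinase inhibitor SIC1, and ASH1 messenger RNA is carried to the bud so that its repressor protein keeps the HO endonuclease gene off in daughters. The RNA came from whole cultures, so fewer cells in this phase and less RNA per cell cannot be told apart.

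Because several of these genes are known targets of Swi5, the 600 bp before each start codon were searched for its core binding letters, ACCAGC on either strand. At least 1 match was found for 7 of the 10 genes, against 985 of 5999 protein-coding genes (16.4%). At least 2 matches were found for 5 of the 10 genes, against 90 of the 5999. Of the 13 other listed targets of M/G1 transcription factors described below, 7 had at least 1 match and 2 had at least 2. DSE1 and CTS1 had 3 matches each, DSE2, DSE3 and EGT2 had 2 each, SCW11 and PIR1 had 1 each, and DSE4, ASH1 and SIC1 had 0. No match overlapped another, and the windows were not trimmed where a neighbouring gene lay closer. The letters ACGCGT, bound by the G1/S factor MBF, were in 0 of the 10 windows and in 6.33% of all windows. The letters CNCGAAA, bound by the G1/S factor SBF, were in 5 of the 10 windows, those of DSE2, SCW11, DSE4, ASH1 and SIC1, and in 24.7% of all windows. A match describes the sequence only and is not evidence of binding. Stretches around the matches are shown for the 4 genes that were lowest in psh1 cac2 relative to WT, and for DSE3 and PIR1, which carry the same letters and had little difference from WT. They run 5′ to 3′ on the strand of the gene, from RefSeq assembly R64 (sacCer3), and capitals mark ACCAGC or its reverse complement.
DSE1, chrV:409291-409529, - strand: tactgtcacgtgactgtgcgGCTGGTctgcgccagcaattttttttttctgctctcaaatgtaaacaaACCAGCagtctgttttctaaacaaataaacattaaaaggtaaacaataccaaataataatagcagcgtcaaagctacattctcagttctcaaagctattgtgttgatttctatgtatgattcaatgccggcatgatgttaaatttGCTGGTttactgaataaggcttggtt
DSE2, chrVIII:385069-385273, + strand: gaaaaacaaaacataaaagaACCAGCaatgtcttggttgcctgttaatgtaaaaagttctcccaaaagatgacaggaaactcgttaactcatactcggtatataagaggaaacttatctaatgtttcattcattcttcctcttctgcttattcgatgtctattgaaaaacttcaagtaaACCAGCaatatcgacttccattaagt
SCW11, chrVII:443417-443462, - strand: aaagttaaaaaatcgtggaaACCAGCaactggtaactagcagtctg
CTS1, chrXII:710637-710722, - strand: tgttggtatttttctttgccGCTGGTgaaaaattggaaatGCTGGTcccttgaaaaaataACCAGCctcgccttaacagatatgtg
DSE3, chrXV:818531-818628, + strand: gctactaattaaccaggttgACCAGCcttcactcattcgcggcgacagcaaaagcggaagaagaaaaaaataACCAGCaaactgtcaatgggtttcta
PIR1, chrXI:143003-143048, - strand: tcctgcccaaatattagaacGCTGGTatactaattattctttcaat

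**Figure D1:**
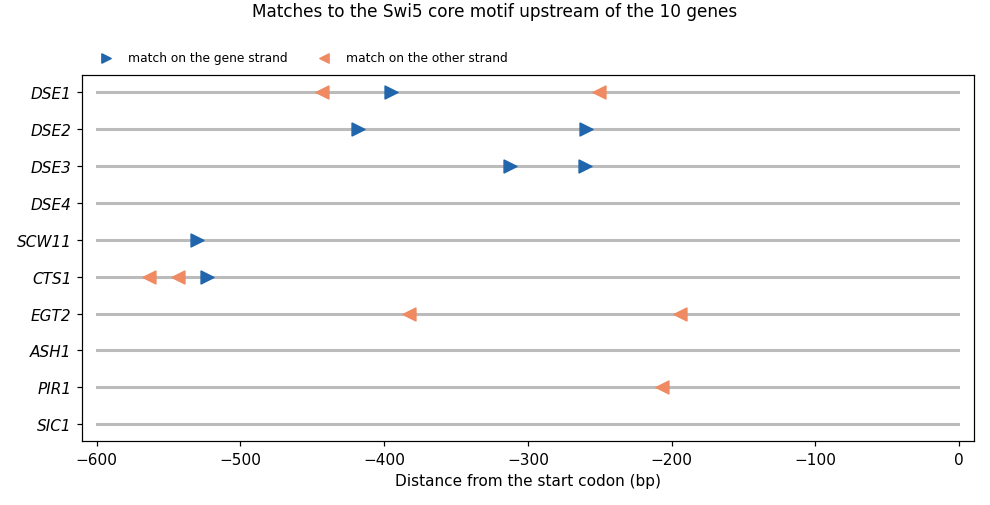
Positions of ACCAGC matches in the 600 bp before the start codon of each gene (x axis, distance from the start codon in bp), with triangles pointing along the strand that carries the match. The 3 matches of CTS1 lie close together 521 to 566 bp upstream, and DSE4, ASH1 and SIC1 have no match in this window.

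Each of the 10 genes has 1 exon. In R64 coordinates CTS1 is annotated at chrXII:708448-710136 and SCW11 at chrVII:441281-442909, both on the - strand, DSE2 at chrVIII:385510-386487 on the + strand and DSE1 at chrV:407342-409063 on the - strand. Averaged over the 8 libraries their levels ran from 33.4 RPKM for DSE3, near the middle of all tested features, to 415 RPKM for PIR1, above 95.8% of them. The lowest count of any member in any library was 1269 reads, for DSE3 in psh1 cac2 replicate 1. Reads recovered per library ranged between 30749384 and 34537715. PSH1 had 0 to 2 reads in the psh1 and psh1 cac2 libraries against 932 to 1128 in the others, and CAC2 had 1 to 7 reads in the cac2 and psh1 cac2 libraries against 837 to 1155. CSE4 stood at 22798 and 23546 RPKM in psh1 cac2, 9616 and 10127 in psh1, 17955 and 19968 in cac2 and 14586 and 16625 in WT, so the genotypes did not carry the same amount of CSE4 RNA. The part of this difference in the results below was not tested.

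Most of the 10 genes had their lowest levels in psh1 cac2. Both psh1 cac2 libraries lay below all 6 other libraries for 8 of the 10 genes, all but PIR1 and SIC1, and this held for 8.42% of all tested features. Against WT, DSE2, SCW11, DSE1 and CTS1 fell by the limma test across all features. These 4 were 4 of 10 members, against 2.18% of all tested features called lower, and 0 members rose, against 3.86% called higher. The 10 genes were chosen with earlier results of these data known, and these 4 moved closely together over the libraries. The counts of members here and below are therefore descriptions and not independent findings. The median log2 change of the 10 members was -0.29, and that of all features was -0.01. The changes are modest, since psh1 cac2 means lay 2.30% (SIC1) to 31.1% (DSE2) below the WT means.

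**Figure D2:**
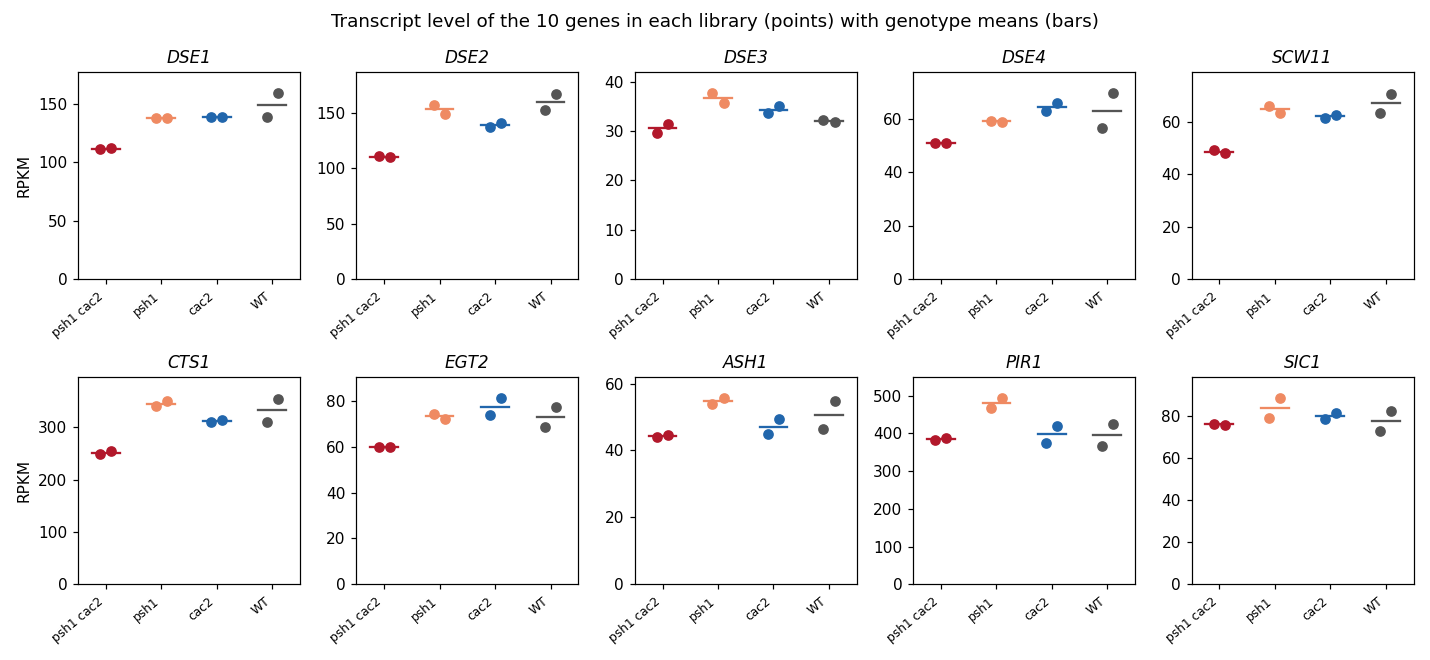
RPKM of each gene (y axis, from 0) in every library (points), with bars at the genotype means. For CTS1 the psh1 cac2 libraries sit at 249 and 255, below the 6 others between 311 and 355, whereas for SIC1 the genotypes lie close together.

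CTS1 encodes the chitinase that breaks down the chitin between mother and daughter. Its level was 249 and 255 RPKM in psh1 cac2, 341 and 350.0 in psh1, 311 and 314 in cac2, and 311 and 355 in WT. The psh1 cac2 libraries were the lowest 2, the cac2 and psh1 libraries did not overlap each other, and both lay partly or wholly within the range of WT. CTS1 averaged 252 ± 4.86 RPKM in psh1 cac2 and 333 ± 31.1 RPKM in WT (SD, n = 2 each), a log2 change of -0.40 (SE 0.0787, limma adjusted p = 0.0264).

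SCW11 encodes a wall protein related to glucanases. It had 49.2 and 48.2 RPKM in psh1 cac2, 66.1 and 63.5 in psh1, 61.7 and 62.8 in cac2, and 63.6 and 70.8 in WT. The psh1 cac2 libraries stood apart below the rest, cac2 lay just below WT, and psh1 overlapped WT. The log2 change in psh1 cac2 against WT was -0.46 (SE 0.0679, limma adjusted p = 0.0078).

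DSE2, a secreted daughter-specific protein similar to glucanases, had the largest difference of the 10. It stood at 111 and 109.7 RPKM in psh1 cac2, 157 and 149 in psh1, 137 and 140.3 in cac2, and 153 and 167 in WT. Both cac2 libraries lay between psh1 cac2 and WT, with no overlap on either side. The log2 change was -0.53 in psh1 cac2 against WT (SE 0.0698, limma adjusted p = 0.00494) and -0.20 in cac2 against WT (adjusted p = 0.149), which did not pass.

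DSE1, a daughter-specific protein of the cell wall programme, had 111 and 112 RPKM in psh1 cac2, 138.2 and 137.7 in psh1, 138.9 and 138.3 in cac2, and 138.3 and 159 in WT. The psh1 and cac2 libraries were nearly level with WT replicate 1, and WT replicate 2 was the highest of all. The log2 change in psh1 cac2 against WT was -0.41 (SE 0.0767, limma adjusted p = 0.0223).

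DSE4, EGT2 and DSE3 also lay lowest in psh1 cac2 without passing the test against WT. DSE4, a secreted endoglucanase, had 51.1 and 50.9 RPKM in psh1 cac2, 59.2 and 58.9 in psh1, 62.8 and 66.0 in cac2, and 56.5 and 69.6 in WT (log2 change -0.29, limma adjusted p = 0.11). EGT2, a wall-anchored glucanase-like protein needed for clean separation, had 59.9 and 59.8 in psh1 cac2, 74.3 and 72.2 in psh1, 73.8 and 81.0 in cac2, and 68.5 and 77.3 in WT (log2 change -0.28, limma adjusted p = 0.0791). For both genes the psh1 cac2 libraries were below all others, and WT replicate 2 was well above WT replicate 1. DSE3, a daughter-specific bud neck protein, had 29.6 and 31.4 in psh1 cac2, 37.7 and 35.7 in psh1, 33.6 and 35.0 in cac2, and 32.3 and 31.8 in WT (log2 change -0.07, limma adjusted p = 0.497). Its order differed from that of the other DSE genes, with psh1 highest and WT close to psh1 cac2.

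ASH1, SIC1 and the wall protein PIR1 did not pass the test between psh1 cac2 and WT either. ASH1, the repressor of HO, had 44.1 and 44.6 RPKM in psh1 cac2, 54.0 and 55.7 in psh1, 44.8 and 49.4 in cac2, and 46.3 and 54.8 in WT. The psh1 cac2 libraries were again lowest, here only just below cac2 replicate 1, with a log2 change of -0.18 against WT (limma adjusted p = 0.247). SIC1, the kinase inhibitor that delays S phase, had 76.0 and 75.8 in psh1 cac2, 79.2 and 88.7 in psh1, 78.5 and 81.5 in cac2, and 73.0 and 82.4 in WT, and its psh1 cac2 libraries lay between those of WT (-0.03, limma adjusted p = 0.85). PIR1, an O-mannosylated wall protein, had 382 and 389 in psh1 cac2, 468 and 493 in psh1, 374 and 421 in cac2, and 366 and 424 in WT, with psh1 alone standing above the rest (-0.03 in psh1 cac2 against WT, limma adjusted p = 0.865). With quantile normalization the values of PIR1 and SIC1 turned to 0.03 each.

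The calls against WT rested on few libraries. Of the 10 members, 9 were higher in WT replicate 2 than in WT replicate 1, by 1.09 to 1.23-fold, and DSE3 was at 0.986-fold, whereas 49.6% of all features were higher in replicate 2. Without WT replicate 2 the calls were 2, DSE2 and SCW11, with DSE1 at -0.31 (limma adjusted p = 0.0729) and CTS1 at -0.30 (adjusted p = 0.0831). Without psh1 cac2 replicate 1 the call was DSE2 alone. Without psh1 cac2 replicate 2 there were 0 calls, with DSE2 at -0.53 (adjusted p = 0.0554) and SCW11 at -0.44 (adjusted p = 0.0638), and 13 of all features passed in place of 385. In the last 2 cases the remaining psh1 cac2 library is assumed to vary like the other genotypes. CTS1 also missed the threshold when psh1 replicate 1 or replicate 2 was left out, at limma adjusted p-values of 0.0536 and 0.0539. When only the libraries of psh1 cac2 and WT were fitted, 2 genes passed.

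In neither single mutant did any of the 10 genes pass the test against WT. In psh1 against WT, limma called 0 of 10 members at an adjusted p under 0.05 while 14.5% of all features were called, and 2 members had an unadjusted p under 0.05, as did 31.9% of all features. The values ran from -0.10 (DSE1) to 0.28 (PIR1) with a median of 0.03. PIR1 (0.28, adjusted p = 0.08) and DSE3 (0.19, adjusted p = 0.0649) had both psh1 libraries above both WT libraries, which held for 30.0% of all features. In cac2 against WT, limma called 0 of 10 members, while 4.26% of all features were called, and 1 member had an unadjusted p under 0.05, as did 22.5% of all features. The values ran from -0.20 (DSE2) to 0.09 (DSE3) with a median of -0.04. When values were rescaled to plain read totals, the all-feature median of this comparison stood at -0.13, and DSE2 then passed (-0.33, adjusted p = 0.0226). DSE3 passed in psh1 under the same scaling (0.24, adjusted p = 0.0286).

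More of the 10 genes passed when psh1 cac2 was set against psh1. The psh1 cac2 libraries of all 10 genes lay below the psh1 libraries, which held for 35.7% of all features, and 8 of 10 genes fell by limma, against 12.2% of all features called lower. DSE2 fell by 0.47 (SE 0.0698, adjusted p = 0.00366), CTS1 by 0.45 (adjusted p = 0.007), SCW11 by 0.41 (adjusted p = 0.00622) and DSE1 by 0.30 (adjusted p = 0.0286). PIR1 (-0.32), ASH1 (-0.30), EGT2 (-0.29) and DSE3 (-0.26) fell as well, with adjusted p between 0.0189 and 0.0458. DSE4 (-0.21, adjusted p = 0.142) and SIC1 (-0.14, adjusted p = 0.248) did not pass. DSE2, SCW11 and CTS1 kept an adjusted p under 0.05 when any of the 8 libraries was left out, but the count of 8 came to 3 without psh1 cac2 replicate 1, psh1 cac2 replicate 2 or psh1 replicate 1, and to 4 without psh1 replicate 2. With quantile normalization 4 genes passed, and with scaling to total reads, under which the all-feature median stood at -0.14, all 10 did. The fall against psh1 was not particular to these genes. Of the phase markers described below, 10 of 16 G1/S genes also fell against psh1 (median -0.33, with -0.30 for the 10 members). So did 3 of 9 histone genes (median -0.18) and 0 of 17 G2/M genes (median 0.01).

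Against cac2, the values of psh1 cac2 were negative for all 10 genes (median -0.31, from -0.36 for EGT2 to -0.04 for PIR1). The libraries did not overlap for 9 of them, which held in this direction for 29.0% of all features. Limma called 0 of 10 in this comparison, and 0.895% of all features. With a block by replicate number more features passed, 520 in place of 57, some of the 10 members among them, as given further below. An unadjusted p under 0.05 was found for 7 of the 10 and for 23.8% of all features. SCW11 came closest (-0.35, adjusted p = 0.0633). The comparisons of psh1 cac2 with WT, psh1 and cac2 share the same 2 psh1 cac2 libraries and are not independent of each other.

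The interaction, the log2 change in psh1 cac2 less those in psh1 and in cac2, was negative for each of the 10 genes, from -0.37 (EGT2, SE 0.11) to -0.18 (SIC1, SE 0.117), with a median of -0.28 against -0.01 for all features. Limma called 0 of 10 members and 0.0157% of all features. An unadjusted p under 0.05 was found for 6 of the 10 and for 13.6% of all features. DSE3 had the smallest adjusted p (-0.35, adjusted p = 0.165). With 2 libraries per genotype none of these genes passed the adjusted threshold, so additivity was neither established nor rejected for them.

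**Figure D3:**
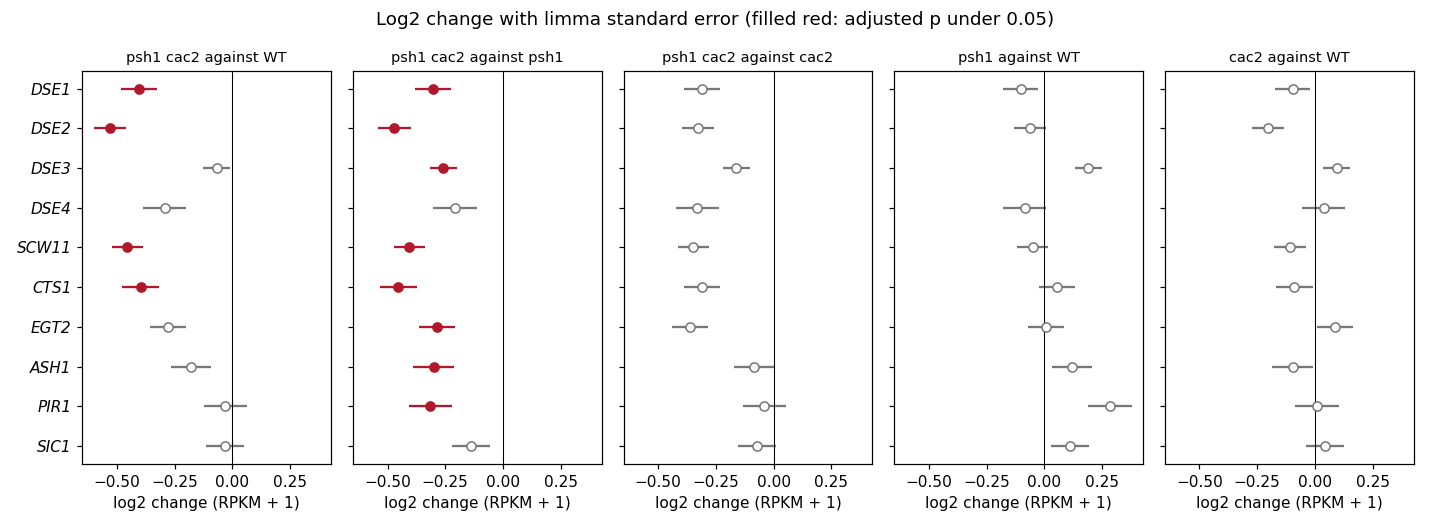
Log2 change of each gene (x axis, on log2(RPKM + 1)) with its limma standard error, for 5 comparisons. The 3 panels with psh1 cac2 hold negative values for every gene, with 4 past the threshold against WT, 8 against psh1 and 0 against cac2, and the 2 single-mutant panels scatter around 0.

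Within the set, SCW11 followed DSE2 (Pearson r = 0.985), DSE1 (r = 0.978) and CTS1 (r = 0.961) most closely over the 8 libraries, which are 4 genotypes in duplicate and share the scaling of each library. The least alike were DSE4 and PIR1 (r = 0.303). Against the mean of the other 9 members after scaling, CTS1 had the highest correlation (0.972) and PIR1 (0.649), SIC1 (0.665) and DSE3 (0.680) the lowest. These correlations are descriptions and carry no test.

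Of the regulator genes SWI5, CBK1 and MOB2, 0 fell in any of the 3 comparisons with WT. SWI5 had 39.4 and 37.2 RPKM in psh1 cac2, 40.6 and 35.7 in psh1, 27.1 and 33.3 in cac2, and 25.4 and 29.5 in WT. Its psh1 cac2 and psh1 libraries all lay above those of cac2 and WT. It rose in psh1 (0.46, limma adjusted p = 0.0345), and its value of 0.47 in psh1 cac2 missed the threshold (adjusted p = 0.0544) but passed without either cac2 library (0.0362 each). The rise of SWI5 in psh1 did not hold without WT replicate 1 (limma adjusted p = 0.141), psh1 replicate 1 (0.166) or psh1 replicate 2 (0.0753). Its adjusted p stood at 0.0515 without psh1 cac2 replicate 1, 0.0514 without replicate 2, 0.0713 with no filter and 0.052 with no intensity trend. CBK1 had 37.8 and 38.5 RPKM in psh1 cac2, 40.2 and 39.4 in psh1, 41.4 and 39.0 in cac2, and 39.7 and 37.9 in WT. MOB2 had 26.0 and 25.1 RPKM in psh1 cac2, 25.2 and 27.5 in psh1, 24.1 and 24.6 in cac2, and 24.5 and 23.5 in WT. CBK1 (-0.02, limma adjusted p = 0.827) and MOB2 (0.08, adjusted p = 0.42) did not pass in psh1 cac2. In the RAM network list, with the scaffold and kinase genes KIC1, HYM1, TAO3 and SOG2 and the RNA-binding protein gene SSD1 added, 0 of 7 genes passed in any of the 3 comparisons with WT.

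Other genes, listed as targets of M/G1 transcription factors rather than by their own timing, moved less uniformly. Of 13 listed genes 2 fell and 0 rose in psh1 cac2 against WT (median -0.15), namely PRY3, a secreted sterol-binding protein gene (-0.29, limma adjusted p = 0.0329), and HO (-0.64, adjusted p = 0.035). The call of HO did not hold without psh1 cac2 replicate 1 (limma adjusted p = 0.0658) or 2 (0.171), psh1 replicate 1 (0.0633) or 2 (0.0628) or WT replicate 1 (0.148), with no filter (0.0823), with no intensity trend (0.0527) or with only the groups compared (0.0795). Against psh1, 5 of the 13 fell, including HO (-1.60), TEC1, a filamentous growth factor (-0.38), AMN1, a daughter-specific inhibitor of mitotic exit (-0.39), and SUN4, a septum glucosidase gene (-0.45). With scaling to total reads 10 of the 13 fell against psh1. PRY3 also fell against cac2 (-0.36, adjusted p = 0.0485). In psh1 against WT, 2 of the 13 rose, HO (0.96, limma adjusted p = 0.00994) and the cyclin gene PCL2 (0.30, adjusted p = 0.0372), and in cac2 HO alone fell (-0.90, adjusted p = 0.00863). The G1/S marker genes described below had medians of the same signs as HO in psh1 (0.41) and cac2 (-0.30) against WT. In psh1 cac2 against WT the signs differed, with a G1/S median of 0.05 and HO at -0.64. The part of cell-cycle timing in the changes of HO was not tested. HO missed the threshold without psh1 replicate 2 in psh1 (adjusted p = 0.0518) and without cac2 replicate 2 in cac2 (0.057), and with scaling to total reads 4 of the 13 rose in psh1 and 3 fell in cac2. HO, the target of both Swi5 and Ash1, stood at 11.1 and 9.15 RPKM in psh1 cac2, 34.2 and 31.0 in psh1, 8.94 and 7.54 in cac2, and 18.5 and 14.3 in WT. By genotype means HO and ASH1, its repressor, were both highest in psh1 and next in WT.

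Markers of other cell-cycle phases also differed between the cultures. Of 17 G2/M genes of the Clb2 cluster, 8 rose and 0 fell in psh1 cac2 against WT (median 0.40), and their summed level was 615 to 658 RPKM in psh1 cac2, 607 to 676 in psh1, 466 to 557 in cac2 and 451 to 501 in WT. Of 9 histone genes, which peak in S phase and whose near-identical copies may share reads, 5 rose in psh1 cac2, HTA1, HTB1, HHT2, HHF2 and HHO1 (median 0.40, summed 2800 to 2955 RPKM in psh1 cac2 against 2196 to 2233 in WT). Of 16 G1/S genes, 2 rose in psh1 cac2, namely the polarity gene GIC1 (0.47) and the repressor gene YOX1 (0.33), with a median of 0.05 that turned to -0.02 with scaling to total reads, under which 1 rose and 2 fell. The marker genes named here and among the mating-type markers were picked after their values were seen. In psh1 the same lists had 11 of 17, 9 of 9 and 13 of 16 genes higher and 0 lower, with medians of 0.39, 0.50 and 0.41. In cac2, 0 of 17 G2/M and 0 of 9 histone genes passed, and 7 of 16 G1/S genes fell (median -0.30), or 13 of 16 with scaling to total reads (median -0.43). These rises stood in the same libraries in which 4 of the 10 genes fell, and the part of cell-cycle distribution in that difference was not tested. With scaling to total reads, 2 of 17 G2/M genes and 4 of 9 histone genes rose in psh1 cac2.

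**Figure D4:**
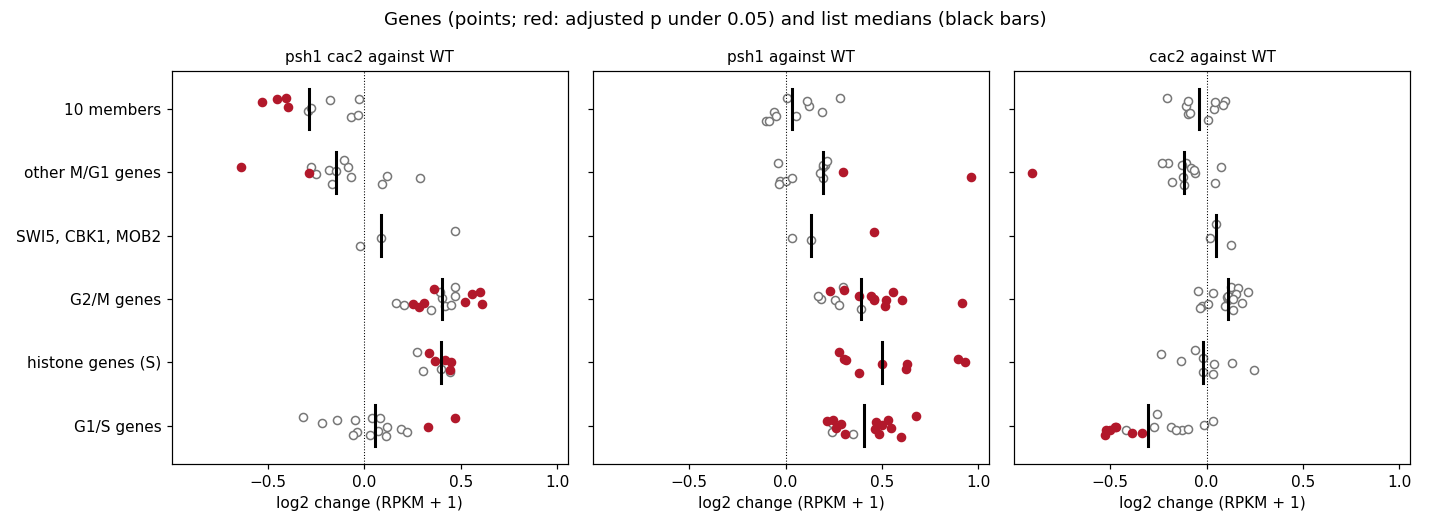
Log2 changes (x axis, on log2(RPKM + 1)) of the 10 members, the other listed targets including HO (labelled other M/G1 genes), the regulators SWI5, CBK1 and MOB2, and phase marker genes. Each mutant is set against WT, with black bars at the list medians. In psh1 cac2 the members' median is -0.29 while the medians of the G2/M and histone genes are both 0.40.

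The remaining lists of the pathway moved little in psh1 cac2 against WT. Of 12 mitotic exit genes 2 rose, the GTPase gene TEM1 (0.47, limma adjusted p = 0.0299) and the kinase partner gene MOB1 (0.31, adjusted p = 0.0363), and 0 fell. In psh1, the polo kinase gene CDC5 (0.52), the spindle pole scaffold gene NUD1 (0.41) and the phosphatase gene CDC14 (0.22) rose. Of 6 genes for transport and translation of ASH1 messenger RNA, KHD1, a translational repressor gene, rose in psh1 cac2 (0.33, adjusted p = 0.0216) and in psh1 (0.37). Of 8 genes of the MCM cluster, which is expressed at the M/G1 boundary through Mcm1, the helicase subunit gene MCM2 rose in both (0.24 each, adjusted p = 0.0431 in psh1 cac2 and 0.025 in psh1). With scaling to total reads 0 of the 8 rose and 2 fell in psh1 cac2, and 1 of the 12 mitotic exit genes rose. Of 9 further septum and wall genes 0 passed in psh1 cac2 against WT. In psh1, 4 of these 9 rose: the chitin synthase gene CHS2 (0.56) and the wall genes SCW4 (0.80), SCW10 (0.53) and CIS3 (0.70), the last a relative of PIR1. Some lists share genes, so their counts are not separate. MOB1, CDC5 and CHS2, like SWI5, are also among the G2/M genes counted above.

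The nearest genes on the chromosome were compared as well. Against WT, 385 of all 6366 features passed in psh1 cac2, and of the 20 nearest features on either side of the 10 genes 1 did. This was YLR285C-A, an uncharacterised frame 109 bp past the end of CTS1 on the same strand, named after its values were seen, with 137 and 145 RPKM in psh1 cac2, 201 and 206 in psh1, 179.6 and 191 in cac2, and 177 and 204 in WT (-0.43, limma adjusted p = 0.0264). It lay lowest in psh1 cac2, as CTS1 did, and the part of CTS1 reads in its level was not tested. Against psh1, 3 of the 20 fell, against 12.2% of all features called lower, and 3 rose. In either direction 1493 of 6366 features passed in that comparison. Those that fell were YLR285C-A (-0.52, limma adjusted p = 0.00548) and both neighbours of DSE1, the casein kinase gene YCK3 (-0.30, adjusted p = 0.0338) and the ubiquitin ligase gene RSP5 (-0.31, adjusted p = 0.0173). Those that rose were YNR068C beside DSE4 (0.80, limma adjusted p = 0.000271) and both neighbours of DSE3, RBL2 (0.31, adjusted p = 0.0218) and GPN2 (0.21, adjusted p = 0.032). PIR1 and its divergent neighbour PIR3, a related wall protein gene, may share reads. PIR3 had a value of -0.14 in psh1 cac2 (adjusted p = 0.616).

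Markers of mating type were also compared, because HO and ASH1 act on mating type. Of 5 tested a-specific genes 3 fell in psh1 cac2, STE2, STE6 and MFA2 (median -0.57), and 4 in cac2, these 3 and AGA2, and BAR1 was listed at 0 in all 8 libraries. Their summed level was 1502 to 1706 RPKM in psh1 cac2, 1740 to 2042 in psh1, 1620 to 1704 in cac2 and 2273 to 2437 in WT. The 4 alpha-specific genes summed to 34.7 to 52.3 RPKM over all libraries, and 0 of them passed in psh1 cac2, whereas 3 of 4 fell in psh1 (median -0.57) and 2 of 4 in cac2. Of 5 genes typical of haploid cells 2 fell in psh1 cac2, the pheromone signalling genes GPA1 (-0.58) and FUS3 (-0.39). Of the same 5 genes, 2 fell in cac2 and 0 in psh1. Of 6 genes of starved or stationary cells 1 fell in psh1 cac2, SPS100 (-1.11), while 2 fell in psh1 and 0 in cac2. The part of these differences in those of the daughter-cell genes was not tested.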

How the data were processed

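The authors deposited RPKM values for 7126 features in 8 libraries made from ribosome-depleted, strand-specific RNA, per the labels' protocols. Tools listed without roles, per the submitters' processing notes, were edgeR 3.14.0, TopHat2 2.0.13 and bcl2fastq 2.18, with the build sacCer3. How reads were counted, and whether by strand, is not given in the sources used here, so sense and antisense reads cannot be told apart. Features were matched to RefSeq R64 by locus tag (6048), symbol (31) or synonym (7). RPKM times gene length gave whole reads, within 0.01 reads, for 99.808% of the values of the 6048, and 7114 features had reads recovered, 1056 of them through an inferred length. The authors' library size was 0.933 to 1.07 times the recovered total, so a scaling beyond the total is in the values.

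Log2(RPKM + 1) was fitted with limma 3.58.1 in R 4.3.3 (genotype term, intensity trend, 4 residual degrees of freedom) over the 6366 features whose mean reached 1 RPKM. Tests were two-sided, with Benjamini-Hochberg adjustment over all features and a threshold of 0.05. Fold changes on this scale slightly understate those of low genes. The fit was first tested on simulated data. Libraries of a genotype differed by chi-square values of 26.4 to 44.8 per degree of freedom, so none was counted as a repeat. Alternatives were a pseudocount of 0.1, no low filter, total-read scaling, quantile normalization, no trend, only the groups compared, each library left out and a replicate block. All 10 members are named. From the pathway lists, genes past the threshold are named, at most 4 per direction by smallest p. Markers of phase, mating type and starvation are given as counts and medians, and those named were picked after their values were seen. A regulator in the lists is not reported here. The members and lists were chosen with earlier results of these data known.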

Additional observations from a re-analysis of the deposited data

How the results depend on the processing

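The sign of the log2 change was the same in 860 of 890 recomputed values, and the 30 that turned were past the threshold neither before nor after. The 4 members called in psh1 cac2 against WT were 2 when only the groups compared were fitted and 0 to 5 when each library was left out in turn. The 8 called against psh1 were 4 with quantile normalization and 3 to 9 with each library left out. Rescaling to total reads gave 1 call in psh1 against WT (DSE3) and 1 in cac2 against WT (DSE2). The interaction had 0 calls in each alternative run, and fitting only the groups compared does not apply to it. The causes of these changes were not tested.

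Same-numbered libraries deviated together only in part (correlations of 0.038 to 0.443), so the numbers were not taken as pairs. With the replicate block members called for psh1 cac2 numbered 6 against WT, 6 when set beside cac2 and 8 beside psh1, with 2 in psh1 against WT (DSE3 and PIR1) and 0 in cac2 against WT. SWI5 in psh1 cac2 against WT also passed with the block (adjusted p = 0.0307, limma).

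Over all features, the 385 calls of psh1 cac2 against WT were 984 with the block, 659 with total reads, 231 with only the groups compared and 13 to 373 with a library left out. The 926 of psh1 against WT were 1625, 1163, 582 and 93 to 826. The 271 of cac2 against WT were 821, 1352, 188 and 153 to 254. The 57 against cac2 were 520, 140, 23 and 2 to 32, with 2 when low values were not filtered and 12 with no intensity trend. The 1493 against psh1 were 2187, 2614, 1468 and 502 to 1489. The 1 interaction call was 130 with the block, 5 with quantile normalization and 1 to 41 with a library left out.

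With total reads the log2 changes that turned sign were, in cac2 against WT, -0.032 (DSE3), -0.091 (DSE4), -0.043 (EGT2), -0.12 (PIR1) and -0.086 (SIC1), in psh1 against WT 0.0036 (SCW11), and in psh1 cac2 against cac2 0.012 (PIR1). With quantile normalization they were 0.0066 (CTS1) and 0.024 (DSE1) in cac2 against WT, -0.017 (CTS1) and -0.011 (EGT2) in psh1 against WT, and 0.026 (PIR1) and 0.029 (SIC1) in psh1 cac2 against WT. Leaving out a library gave, in cac2 against WT, -0.22 to 0.023 (ASH1), -0.18 to 0.0067 (CTS1), -0.19 to 0.0032 (DSE1), -0.11 to 0.19 (DSE4), -0.00014 to 0.17 (EGT2), -0.097 to 0.12 (PIR1) and -0.043 to 0.13 (SIC1). In psh1 against WT it gave -0.040 to 0.15 (CTS1), -0.13 to 0.0030 (DSE2), -0.23 to 0.063 (DSE4), -0.078 to 0.093 (EGT2) and -0.13 to 0.026 (SCW11). In psh1 cac2 against WT it gave -0.14 to 0.075 (PIR1) and -0.12 to 0.056 (SIC1), and in psh1 cac2 against cac2 -0.12 to 0.044 (PIR1).

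With 2 cultures of 1 strain per genotype, a value without one of its libraries rests on a lone sample assumed to vary like the others. Each member had at least 1269 reads in every library.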

Other observations

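The genes whose levels over the 8 libraries most resembled the mean of the 10 members, each centred and scaled, were SLA1, an endocytic actin regulator (Pearson r = 0.944), the bromodomain gene BDF1 (0.928), the permease regulator kinase NPR1 (0.927), the membrane tether gene TCB1 (0.926), the silencing gene SIR3 (0.924) and the pheromone-processing peptidase gene STE13 (0.924). TCB1 had 72.0 and 71.6 RPKM in psh1 cac2, 91.8 and 89.9 in psh1, 77.5 and 79.5 in cac2, and 78.0 and 88.1 in WT. Of these 6 genes 0 passed in psh1 cac2 against WT, and SLA1 (-0.21, limma adjusted p = 0.0431) and TCB1 (-0.34, adjusted p = 0.0152) fell against psh1. The most opposed genes were PUL3 (r = -0.983), CSI1 (-0.949) and the meiotic gene HED1 (-0.946), at low levels of 1.19 to 11.9 RPKM. For each of them both psh1 cac2 libraries lay above all other libraries. Against psh1, HED1 rose (0.37, limma adjusted p = 0.0326), and PUL3 and CSI1 did not pass. These likenesses cover 4 genotypes in duplicate and are a description.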
